A study of Rattus norvegicus with 4 samples.

Results

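Rab GTPases are small membrane switches. Bound to GTP they recruit effectors that tether, move and fuse vesicles, and bound to GDP they are extracted from the membrane by a chaperone. In a macrophage that has engulfed a particle, Rab5 proteins mark the early phagosome, Rab7 proteins mark the late phagosome that fuses with lysosomes, and Rab4, Rab11, Rab14 and Rab35 proteins return membrane to the surface. The family was taken as every rat RefSeq symbol made of Rab, a number and at most a letter and a digit, which gave 58 genes. Of these, 54 were matched to at least 1 probe, among 16581 named genes and 39506 genes and unnamed transcripts in all. Rab22a, Rab37, Rab42 and Rab44 were not matched to a probe.

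The cells were NR8383, a continuous rat alveolar macrophage line first obtained by lung lavage, here after 20 passages. All 4 samples were biological replicates of 1 group, exposed for 4 h to 0.9 cm²/cm² of the carbon black Printex 90, a nanoparticle powder, and each was hybridised to its own 1-colour Agilent array, all on 1 slide and in 1 scan. Cells incubated without particles were not analysed here, so no value below is an effect of carbon black. A level is log2 of the processed intensity minus the 75th percentile over the probes of the same array, so that 0 is that percentile, and it is given as mean ± SD (n = 4 arrays). Probes differ in how strongly they bind, so levels are compared between arrays for 1 probe and not between genes. A gene was called detected on an array when the scanner software marked it well above background there.

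Between 37.5% and 40.9% of probes were well above background on each array, and no spot was saturated. Replicate 1 had the highest background, with a 99th percentile of negative control spots of 27.1 against 4.95 to 7.40 on the other arrays. Of 10 macrophage markers, 10 were detected on all 4 arrays, among them Cd68 at 5.56 ± 0.15 and Csf1r at 2.82 ± 0.16. Of 18 markers of epithelial, lymphoid, granulocytic, fibroblast and endothelial cells, 17 were detected on no array, and the endothelial cadherin gene Cdh5 was detected on 2. The marker lists were chosen with earlier results of these data known. These counts therefore describe the listed genes and are not a test of cell identity.

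Most Rab genes gave a signal in these cells. The mark for a signal well above background was set on every array for 38 of 54 measured Rab genes (70.4%), on some arrays for Rab5a and Rab40c, and on no array for 14. The share with the mark on every array was 48.0% over named genes and 34.0% over all genes and unnamed transcripts. It was set on no array for 44.0% of named genes. By role, the mark was set on every array for 80.0% of early endosome and of recycling endosome Rabs, 9 of 12 of those of late endosomes, lysosomes and phagosomes, 61.5% of those of the endoplasmic reticulum and Golgi, and 60.0% of those of secretion. These groups hold 5 to 13 measured genes each, so the shares rest on few genes. The difference between groups was not tested.

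**Figure D1:**
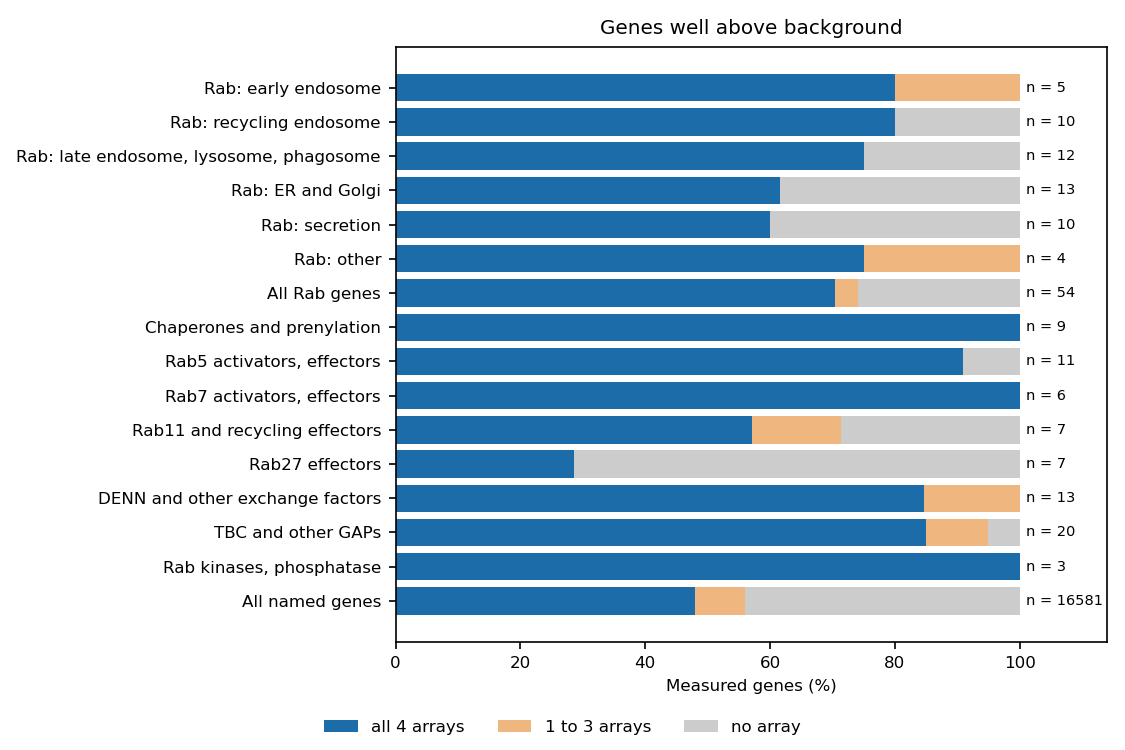
Share of measured genes (%) well above background on all 4 arrays, on 1 to 3 arrays or on no array, for Rab genes by role, for their regulators and effectors, and for all named genes; n is the number of measured genes. All Rab genes stand at 70.4% on all arrays against 48.0% of named genes, and Rab27 effectors are the lowest bar at 28.6%.

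Several close relatives within the family differed in detection. Rab3d, a Rab of secretory granules, was detected on all 4 arrays, and its relatives Rab3a, Rab3b and Rab3c, known from neuronal and endocrine exocytosis, on none. Rab32, which acts on phagosomes and lysosome-related organelles, was detected on all arrays and its relative Rab38 on none. Rab27a was detected on all arrays, and the 3 probes of Rab27b on none. The same split was seen for Rab9a and Rab9b, for Rab6a and the largely neuronal Rab6b, and for Rab33b and Rab33a. The other genes detected on no array were Rab15, Rab17, Rab19, Rab30, Rab36 and Rab39a. A gene without the mark has only an upper bound. Apart from Rab27b, each gene detected on no array was read by 1 probe. Probes of the same gene can differ in detection, as those of Rab23 did (below). These splits are therefore between probes and need not be between transcripts. For 9 of the 14 the software's weaker mark, for a positive and significant signal, was also set on no array. Among these was Rab3b, whose intensity was 4.47, 2.27, 2.18 and 2.41 on replicates 1 to 4, against 22.3, 11.3, 10.8 and 12.1 for the dimmest spot marked well above background. The weaker mark was set on all 4 arrays for Rab33a, on 3 for Rab17, on 2 for Rab27b and on 1 each for Rab30 and Rab3a.

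The promoter sequence of the members was set beside this detection pattern, because genes used in most tissues tend to have promoters rich in the CpG dinucleotide. RefSeq promoters of build GRCr8, 250 bases before to 50 after the annotated gene start, were matched by symbol for 46 of the 58 genes. The 32 with detection on all arrays had a median of 22.5 CpG (range 4 to 41), against 21 for the 6405 named genes with such detection. The 10 detected on no array had a median of 14.5 CpG (range 7 to 30), against 6 for 5460 named genes without detection. Undetected Rab genes overlapped the detected ones in CpG content, and their median lay above that of undetected genes in general. The comparison is a description and was not tested.

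Shown are 4 of these promoters with every CpG in capitals, chosen after their values were seen. Rab7a is the central late phagosome Rab, Rab35 shares with Rab31 the most CpG among members detected on all arrays, Rab17 has the fewest among members detected on none, and Rab6b the most among those. Rab14, which has the fewest among detected members (4 CpG), was first chosen for printing and was replaced by Rab17 after its sequence had been read. The windows lie at chr4:122064136-122064435 (minus strand), chr12:46641895-46642194 (minus strand), chr9:99013983-99014282 (minus strand) and chr8:112573973-112574272 (plus strand) and hold 22, 41, 7 and 30 CpG.
Rab7a: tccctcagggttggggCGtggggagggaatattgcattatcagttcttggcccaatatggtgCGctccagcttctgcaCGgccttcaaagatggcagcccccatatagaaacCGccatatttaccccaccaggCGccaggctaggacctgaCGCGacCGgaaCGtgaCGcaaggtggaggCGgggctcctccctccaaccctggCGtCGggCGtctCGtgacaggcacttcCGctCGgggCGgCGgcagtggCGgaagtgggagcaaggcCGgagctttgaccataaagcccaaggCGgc
Rab35: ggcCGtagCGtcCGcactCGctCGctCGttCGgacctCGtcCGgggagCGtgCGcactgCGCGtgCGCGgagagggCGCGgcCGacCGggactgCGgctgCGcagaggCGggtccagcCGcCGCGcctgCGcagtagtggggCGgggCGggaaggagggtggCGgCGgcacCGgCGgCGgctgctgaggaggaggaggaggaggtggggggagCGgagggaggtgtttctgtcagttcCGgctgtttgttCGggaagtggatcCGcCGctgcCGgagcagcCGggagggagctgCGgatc
Rab17: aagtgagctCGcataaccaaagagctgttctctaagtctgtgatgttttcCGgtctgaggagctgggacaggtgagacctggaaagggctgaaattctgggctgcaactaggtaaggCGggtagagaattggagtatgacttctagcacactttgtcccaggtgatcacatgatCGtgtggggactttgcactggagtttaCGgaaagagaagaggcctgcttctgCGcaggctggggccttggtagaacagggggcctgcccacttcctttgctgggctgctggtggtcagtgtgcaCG
Rab6b: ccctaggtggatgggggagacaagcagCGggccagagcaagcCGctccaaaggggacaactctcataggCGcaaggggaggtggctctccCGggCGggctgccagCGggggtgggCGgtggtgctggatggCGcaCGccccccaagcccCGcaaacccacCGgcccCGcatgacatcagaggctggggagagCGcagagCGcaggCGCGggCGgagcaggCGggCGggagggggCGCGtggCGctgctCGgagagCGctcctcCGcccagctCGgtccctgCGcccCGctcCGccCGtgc

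Rab35 and Rab6b had nearly the same base composition, with GC contents of 74.3% and 74.7%, while Rab35 was detected on all arrays and Rab6b on none. The palindrome CACGTG, an E-box bound by factors that include the regulators of lysosomal genes, reads the same on both strands and was searched as letters. It was present in 4 of the 46 Rab promoters (8.70%), those of Rab5a, Rab20, Rab21 and Rab31, and in 6.74% of 24206 promoters in the table. The share among Rab promoters was near that of all promoters. The Rab21 window, at chr7:52814894-52815193 (minus strand), is shown as an example with the palindrome in capitals. A match shows letters only and not a bound factor.
Rab21: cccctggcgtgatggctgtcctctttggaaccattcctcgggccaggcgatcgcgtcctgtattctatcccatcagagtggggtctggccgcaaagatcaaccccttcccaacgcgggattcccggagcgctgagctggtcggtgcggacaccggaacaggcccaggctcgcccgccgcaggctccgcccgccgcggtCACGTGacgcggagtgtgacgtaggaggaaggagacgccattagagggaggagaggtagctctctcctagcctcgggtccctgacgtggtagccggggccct

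**Figure D2:**
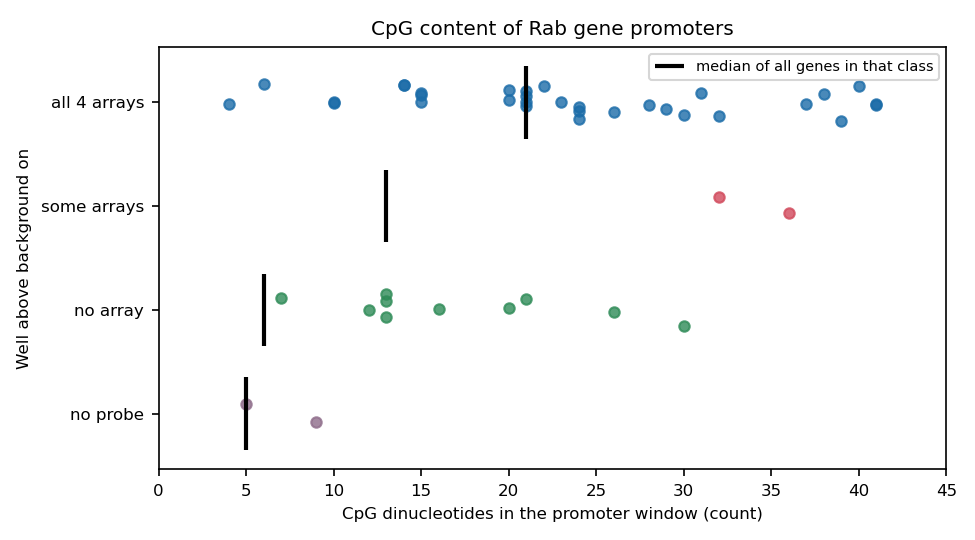
CpG dinucleotides (count) in the 300-base promoter window of 46 Rab genes, each a point, by the arrays on which the gene was well above background; black lines are medians over all genes of that class in the table. Points for no array (7 to 30) overlap those for all 4 arrays (4 to 41). Vertical scatter within a class has no meaning.

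Among early endosome Rabs, which direct the fusion of newly formed endosomes and phagosomes, 4 of 5 measured genes were detected on all arrays. Rab5a, one of the 3 Rab5 paralogues, was the exception. Its level was -3.28, -2.29, -2.62 and -2.50 on replicates 1 to 4, and only replicate 2 was well above background. The underlying intensity of Rab5a was 11.2, 19.2, 10.4 and 11.3, so that replicates 3 and 4 lay just under the dimmest spot with the mark (10.8 and 12.1) and replicate 1 further below it (22.3). The weaker positive and significant mark was set for Rab5a on all 4 arrays. Both paralogues were detected on every array. Rab5b had levels of 3.92, 4.15, 3.99 and 4.06, and Rab5c had 3.87, 4.16, 3.98 and 4.08. For both genes replicate 1 was lowest and replicate 2 highest. Of all genes and unnamed transcripts detected on all arrays, 38.8% were lowest on replicate 1 and 40.8% were highest on replicate 2. Rab21, which also carries integrins into the cell, had a level of 1.91 ± 0.092, and Rab31, which links the trans-Golgi network to endosomes, 5.14 ± 0.15.

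Of 10 recycling endosome Rabs, 8 were detected on all arrays. The slow recycling gene Rab11a had levels of 4.45, 4.75, 4.82 and 4.71 on replicates 1 to 4. On this probe replicate 1 was lowest, and the other 3 arrays lay close together. The second Rab11a probe, also detected on all 4 arrays, had 0.63, 0.46, 0.42 and 0.85. It was lowest on replicate 3 and highest on replicate 4. The paralogue Rab11b had a level of 1.82 ± 0.19, and the fast recycling genes Rab4a and Rab4b had 2.55 ± 0.088 and 4.36 ± 0.12. Rab14, which acts between early phagosomes and the Golgi, had 5.70, 5.66, 5.68 and 5.65, with an SD of 0.022. The SD of Rab14 was higher with each other scaling or background correction tried, between 0.059 with the percentile over all spots and 0.15 with normexp, and its other probes had SDs of 0.16 and 0.10. Rab35, a recycling Rab that also acts at the phagocytic cup, had 5.62 ± 0.10. Rab10, an exocytic and recycling Rab that carries Toll-like receptor 4 to the surface, had 1.67 ± 0.12. Rab25, best known from epithelial cells, was detected on all arrays at -0.62 ± 0.20. In the same RNA the 5 epithelial markers, Epcam and Cdh1 among them, were detected on no array, and so was the epithelial Rab gene Rab17.

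Of 12 Rabs of late endosomes, lysosomes and phagosome maturation, 9 were detected on all arrays. Rab7a, which drives fusion with lysosomes, had levels of -0.70, -0.16, -0.10 and -0.31 on replicates 1 to 4. Replicate 1 was lowest, and the other 3 arrays lay closer together. Rab7b, which acts between late endosomes and the trans-Golgi network, had 1.70, 2.09, 1.96 and 2.00, again lowest on replicate 1. Rab9a, needed to return mannose 6-phosphate receptors from late endosomes, went the other way. Its levels were -0.77, -1.32, -1.50 and -1.64, highest on replicate 1, with an SD of 0.38. The SD of Rab9a was 0.16 without replicate 1, the array with the highest background, and 0.071 with normexp. Normexp was run with an added offset of 50. The processed intensity of Rab9a was 63.7, 37.5, 22.5 and 20.5 on replicates 1 to 4. An added offset by itself narrows log2 differences between such dim values. What caused the spread of Rab9a was not tested. Rab32 had a level of 1.60 ± 0.085, and the phagosome maturation genes Rab20 and Rab34 had 1.36 ± 0.15 and 1.67 ± 0.19. Rab29, which recruits the kinase Lrrk2 to membranes, had 4.30 ± 0.15, and Rab12, a Lrrk2 substrate, 2.59 ± 0.042. Rab24, implicated in late autophagy, had 3.25, 3.37, 3.38 and 3.39, with replicate 1 set apart below 3 nearly equal arrays.

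Of 13 Rabs of the endoplasmic reticulum and Golgi, 8 were detected on all arrays. Rab1a, which carries vesicles from the endoplasmic reticulum to the Golgi, had levels of 5.49, 5.52, 5.59 and 5.58 on replicates 1 to 4, a spread of 0.045 (SD). Its paralogue Rab1b had 5.37, 5.26, 4.99 and 4.84. For Rab1b replicates 1 and 2 were higher than replicates 3 and 4, and its SD was 0.24, against 0.12 with the mean over both probes. Rab2a and Rab2b, which act between the endoplasmic reticulum and Golgi, and the lipid droplet gene Rab18 had levels of 4.27 ± 0.15, 1.59 ± 0.050 and 4.29 ± 0.10. Rab6a, which acts in transport within and back from the Golgi, Rab33b, which links the Golgi to autophagosome formation, and Rab43 had levels of 0.71 ± 0.16, 1.81 ± 0.11 and 1.77 ± 0.23.

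Of 10 measured secretory Rabs, 6 were detected on all arrays. Rab27a, which docks secretory granules and lysosome-related organelles at the plasma membrane, had levels of 1.33, 1.16, 0.94 and 0.88 on replicates 1 to 4, highest on replicate 1. Rab8a, which acts in exocytosis and in macrophage ruffles, had 4.66, 4.61, 4.62 and 4.57. The SD of Rab8a was 0.037 here and 0.20 with normexp. Its paralogue Rab8b had 1.18 ± 0.086. Rab13, known from junction assembly, had 2.47 ± 0.13. Rab26, a secretory granule Rab, had 0.88 ± 0.14, and Rab3d had -0.27 ± 0.25. Of the remaining members, the cilium gene Rab28 had 3.91 ± 0.076. Rab40b, whose protein carries a SOCS box, had 0.58, 0.027, 0.093 and -0.099, highest on replicate 1. Its paralogue Rab40c had -2.37, -1.56, -1.58 and -1.34, and only replicate 1 was not well above background. The intensity of Rab40c was 21.0, 31.7, 21.3 and 25.1 on replicates 1 to 4. On replicate 1 it lay just under the dimmest spot with the mark (22.3). The weaker positive and significant mark was set for Rab40c on all 4 arrays. The hedgehog pathway regulator gene Rab23 had -0.045, -0.20, -0.59 and -0.54.

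**Figure D3:**
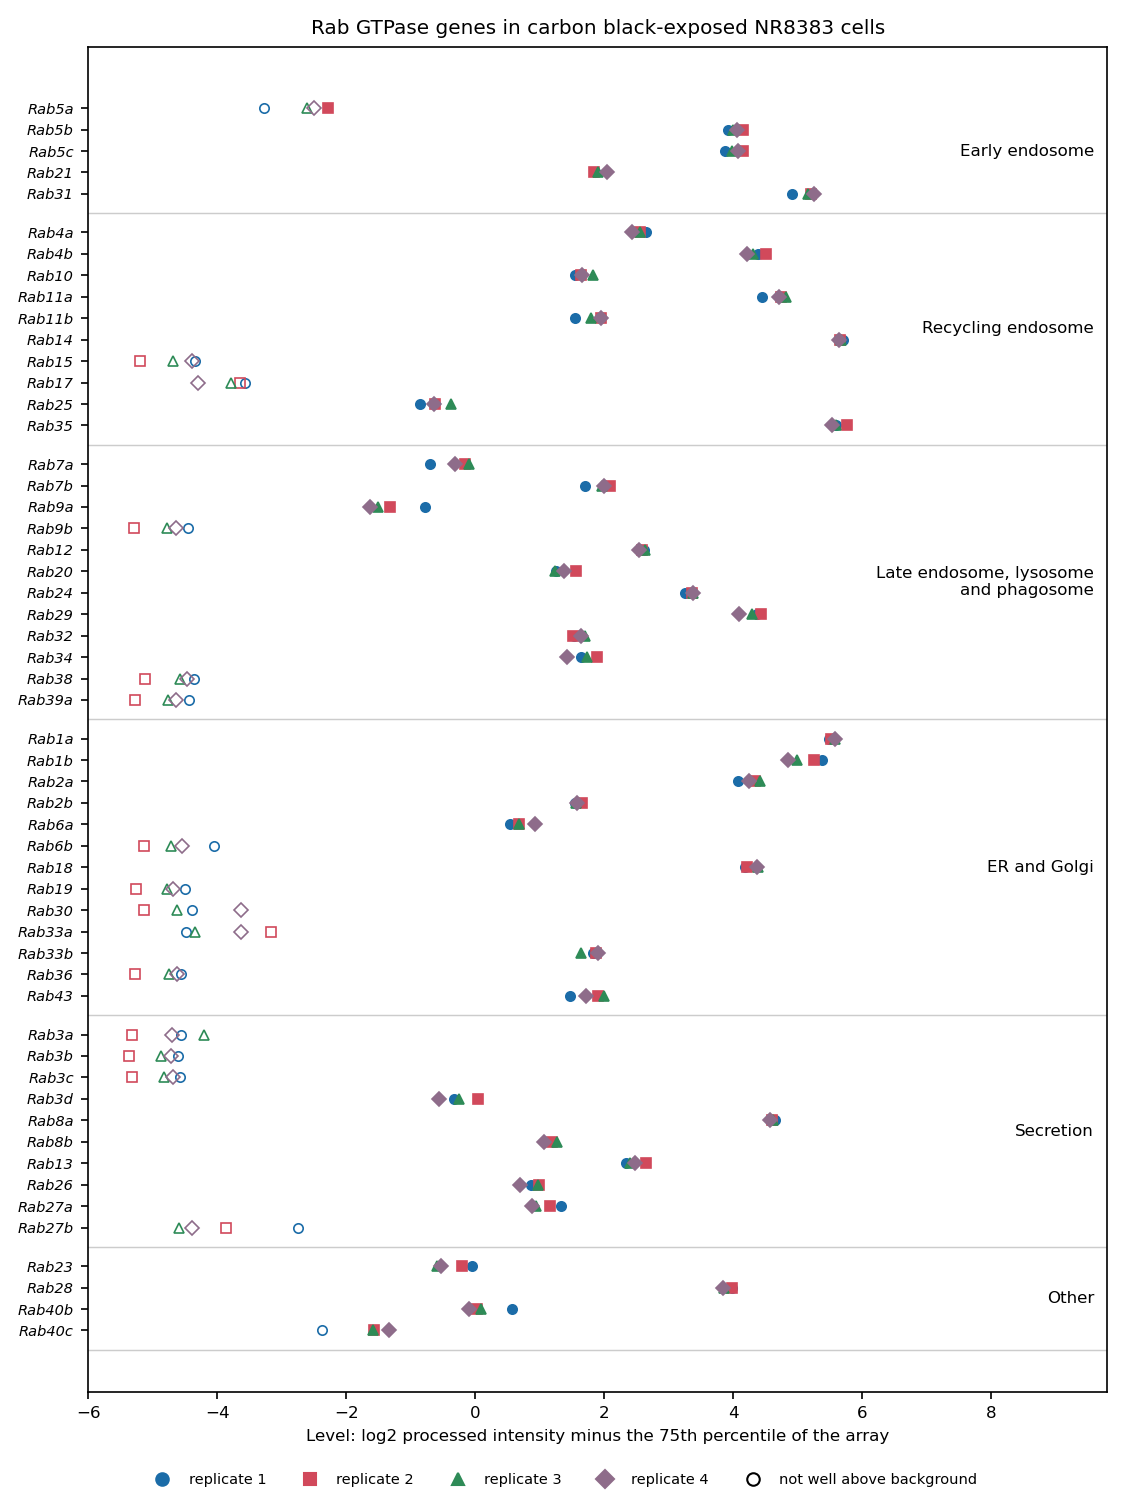
Level (log2 processed intensity minus the array's 75th percentile) of 54 Rab genes on each of 4 arrays, by role. Each symbol is 1 array, and open symbols mark arrays where the gene was not well above background. In most rows with filled symbols the 4 arrays lie close together, with Rab9a, Rab40b and Rab1b among the wider ones, and the 14 rows with open symbols only hold bounds.

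More than 1 probe was present for 13 Rab genes, and their probes were read separately. Of these, 11 had at least 2 probes well above background on all arrays. The gap between the brightest and dimmest probe of a gene ranged from 0.050 log2 units for Rab28 to 7.28 for Rab35, where the probes stood at 5.62 ± 0.10 and -1.65 ± 0.20. Such gaps within a gene show why a level was not ranked against that of another gene. Detection disagreed for Rab23, whose second probe, of another RefSeq transcript, was detected on no array and had levels of -4.10, -3.42, -4.75 and -4.64. The detected Rab23 probe was of a predicted RefSeq transcript, and the second was not. Rab23 therefore counted as detected through the predicted transcript alone. The array with the lowest value was the same on all detected probes for 3 of the 11 genes, Rab1a, Rab2b and Rab7b. For all 3 this was replicate 1, which was also lowest for 38.8% of all genes and unnamed transcripts detected on all arrays. The second Rab7b probe had -0.12, 0.49, 0.36 and 0.82, lowest on replicate 1 like the first. It was highest on replicate 4, and the first was highest on replicate 2. The second Rab1b probe had 0.74, 1.05, 0.98 and 0.90 and was lowest on replicate 1, where the first was highest. Rab34 was spotted 10 times on each array, and its single spots varied with an SD of 0.089 to 0.13 within an array. Its levels, each a mean over these spots, had an SD of 0.19 between arrays. A mean over 10 spots varies less than a single spot, so these SDs are not like quantities.

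Each gene's spread was then tested against genes of like brightness with limma, over 14927 genes and unnamed transcripts well above background on at least 2 arrays, of which 39 were Rab genes. None of the 39 passed a Benjamini-Hochberg adjusted p of 0.05 (limma), and 0 had an unadjusted p under 0.05. Over all tested genes 0.462% passed after adjustment and 5.07% before it. The smallest unadjusted p in the family was 0.088, for Rab1b (SD 0.24, adjusted p = 0.987, limma), but the gene with the smallest p was Rab40c with normexp or a prior without trend, Rab7b with the mean over probes and Rab43 without replicate 4. The median SD between arrays was 0.14 log2 units for the 39 Rab genes and 0.16 for all tested genes. The ratio of a gene's variance to that fitted at its brightness had a median of 0.887 for Rab genes and 0.852 for all tested genes. Over the 38 Rab genes detected on all arrays, which leaves out Rab40c, it was 0.857. Relative to genes of like brightness the Rab median was not lower, and how far it lay above depended on counting Rab40c. The difference was not tested. A p that misses the threshold does not show equal levels.

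**Figure D4:**
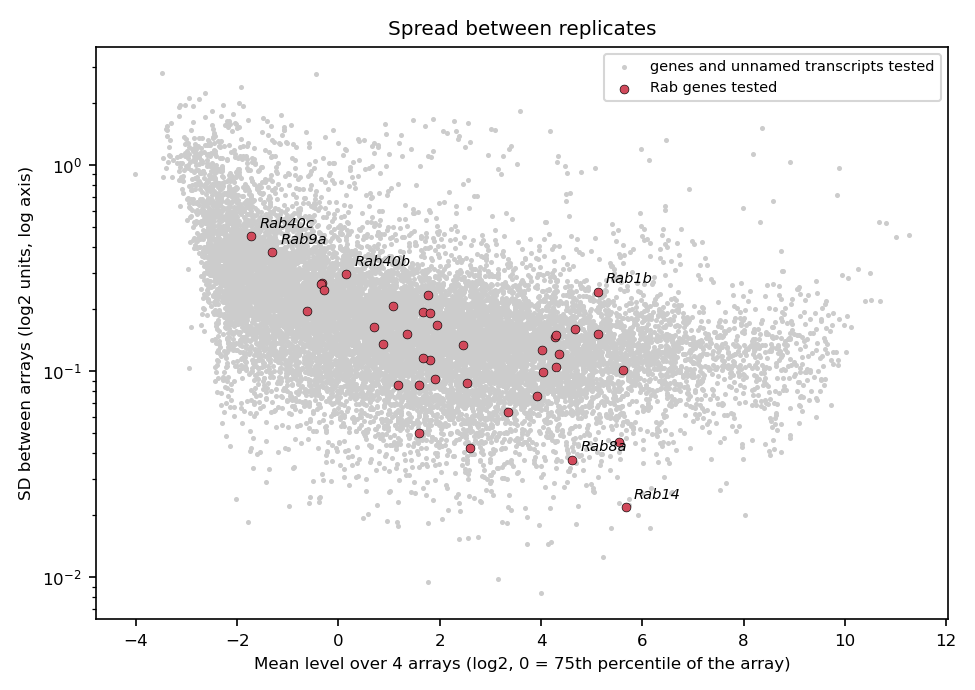
SD between 4 arrays (log2 units, log axis) against mean level for 14927 genes and unnamed transcripts tested (grey) and 39 Rab genes (red). Rab genes lie within the grey cloud, from 0.022 for Rab14 to 0.45 for Rab40c.

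The highest and lowest arrays of a Rab gene differed by a median of 0.30 log2 units over the 38 genes detected on all arrays (range 0.051 to 0.86). The difference was less than 0.5 for 31 of them. It was not computed over all genes, so these values do not set the Rab genes apart. Replicate 1 held the lowest value for 17 of the 38 (44.7%), replicate 4 for 16, and replicates 2 and 3 for 2 and 3. Over the 13446 genes and unnamed transcripts detected on all arrays, 38.8%, 13.3%, 14.3% and 33.5% were lowest on replicates 1 to 4. The shares of Rab genes lowest on replicates 2 and 3 were 5.26% and 7.89%. The median deviation of Rab genes from their own means was -0.051, 0.069, 0.0053 and -0.022 on replicates 1 to 4, and that of all these genes was -0.040, 0.070, 0.011 and -0.028. On each array the median of the Rab genes had the same sign as that of all genes. These deviations depend on the scaling. With the percentile taken over probes detected on all arrays, the Rab medians were -0.0018, -0.0088, -0.011 and 0.023 on replicates 1 to 4.

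**Figure D5:**
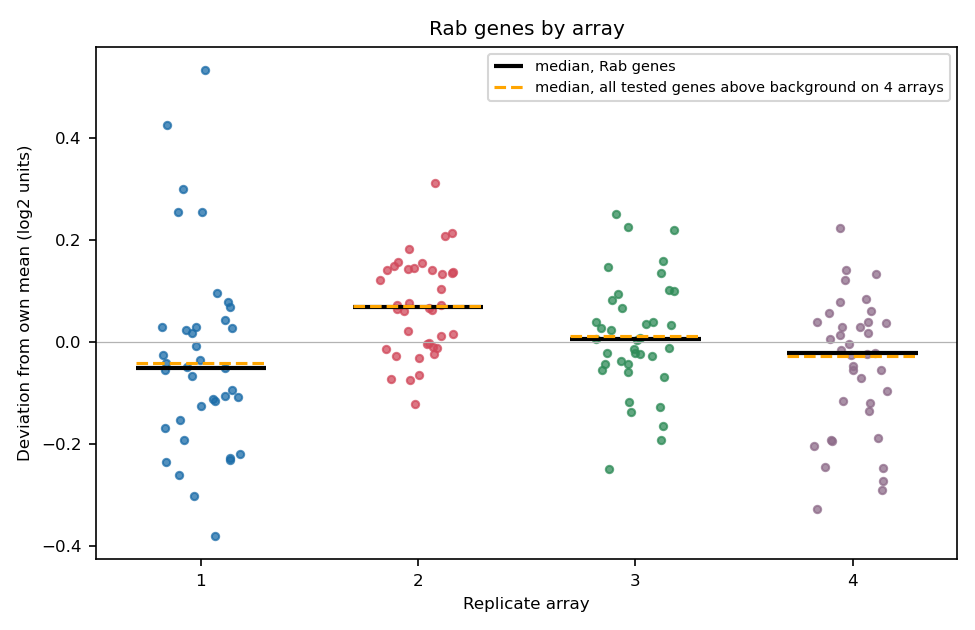
Deviation of 38 Rab genes from their own mean (log2 units) on each of 4 arrays, each gene a point; black lines are medians of Rab genes and dashed lines medians of all genes detected on all arrays. The lines lie close together on every array (-0.051 against -0.040 on replicate 1, 0.069 against 0.070 on replicate 2), and Rab9a is the highest point on replicate 1 at 0.53. Horizontal scatter within an array has no meaning.

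Rabs are loaded, switched and read by other proteins, whose genes were listed by the Rab they serve or by the kind of protein. The mark was set on every array for 62 (81.6%) of 76 measured regulators and effectors, on some for 5 and on no array for 9, beside 48.0% of named genes with the mark on every array. Of 64 tested, 0 passed the adjusted threshold of the variance test and 1 had an unadjusted p under 0.05 (limma). All 9 measured genes for chaperones and prenylation were detected. Gdi2, a GDP dissociation inhibitor that extracts Rabs from membranes, had a level of 4.84 ± 0.14. Rabggtb, the catalytic subunit of the enzyme that attaches the lipid anchor, had 1.11, 1.38, 0.60 and 0.53, with replicates 1 and 2 above replicates 3 and 4 (unadjusted p = 0.026, adjusted p = 0.740, limma).

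The Rab5 module had 10 of 11 measured genes detected on all arrays. Its exchange factor gene Rabgef1 had a level of 1.18 ± 0.10 and the effector gene Rabep1, Rabaptin-5, 2.88 ± 0.033, while Rin1 was detected on no array and the tether gene Eea1 was not matched to a probe. The Rab7 module had 6 of 6, with the exchange factor subunit gene Mon1a at 2.27 ± 0.11 and Rilp, which couples Rab7 to dynein, at 2.72 ± 0.082. Hps1 and Hps4, which form the exchange factor of Rab32 and Rab38, had 3.84 ± 0.13 and 0.090 ± 0.24, detected on all arrays like Rab32. Rab27 effectors were the least detected list, with 2 of 7 on all arrays. They were Unc13d, the priming factor of cytotoxic granules, at 1.04 ± 0.10, and the melanosome linker gene Mlph at 0.88 ± 0.23, while Sytl1, Sytl3, Sytl4, Sytl5 and Myrip were detected on no array.

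Among Rab11 and recycling effectors 4 of 7 were detected on all arrays, with Rab11fip1 at 1.42 ± 0.15, while Rab11fip5 was not matched to a probe. Exchange factors with a DENN domain and others had 11 of 13, with Dennd1a on 3 arrays at -2.06 ± 0.31, while Dennd4b was not matched to a probe. Of 20 GTPase activating proteins 17 were detected on all arrays, with Rabgap1 at 2.06 ± 0.083, while Tbc1d15 was not matched to a probe. The Rab kinase gene Lrrk2 and the Rab phosphatase gene Ppm1h had levels of 1.73 ± 0.18 and 3.01 ± 0.18.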

How the data were processed

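RNA of 4 biological replicates was measured on 1-colour Agilent arrays. The deposited files give spot intensity on a linear scale from Agilent Feature Extraction 11.0.1.1, background-subtracted and detrended within the array, per the file headers. Deposited marks of 0 or 1, another kind of value, record detection.

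From these, the mean log2 intensity of each probe was taken without control or non-uniform spots. From it was subtracted the 75th percentile of its array, computed from 45598 probes. Accessions without versions were matched to RefSeq genes (GRCr8, names only), which named 21109 probes (46.3%). A gene took its brightest probe and was detected if the mark was set on at least 50% of the spots of any probe. An intercept was fitted with lmFit (limma 3.58.1, R 4.3.3). Residual variance was compared with the squeezeVar prior, which followed level, by an F test for higher values only, and p-values were adjusted by Benjamini-Hochberg. The procedure was also run on data simulated from its own fitted variances, which cannot show whether that model fits these arrays. The planned normexp alternative took the median signal in place of the mean signal and added an offset of 50.

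Levels on each array were given for the first gene of each role list, genes detected on some arrays, genes with an isolated array, genes whose probes disagreed in detection, and others chosen after their values were seen. Of regulators the first 2 of each list were named, except 1 gene that is not reported here, and others, such as Rabggtb, Rabep1, Hps1 and Hps4, after their values were seen. The members, lists and tests were chosen with earlier results of these data known.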

Additional observations from a re-analysis of the deposited data

Results flagged for a closer look

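A single array lay far from the other 3, by Dixon's criterion for 4 values, for 1 of 40 Rab genes with signal on any array and for 2 of 67 regulators and effectors. Chance flags about 1 in 20 such groups when the 4 values are drawn alike. The share flagged over all genes was not computed, so these counts do not set the listed genes apart. For Rab24 the gap of replicate 1 to the nearest array was 0.866 of the range, with levels of 3.25 there and 3.37 to 3.39 on the other arrays, a difference of little size. For Tbc1d10a, a GTPase activating protein gene, the ratio was 0.906, with 1.97 on replicate 1 and 2.20 to 2.23 on the others. For Rabgap1l, a GTPase activating protein gene detected on replicate 1 only, the ratio was 0.956, with -0.66 there and -4.52, -4.70 and -4.61 on replicates 2 to 4, which are bounds.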

How the results depend on the processing

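Over 14 other settings the count of Rab genes past the variance test was 0, as with the main setting, by limma. The count at an unadjusted p under 0.05 was 1 with quantile normalization and 1 without the filter on dim probes, Rab1b in both. The median SD of Rab genes lay between 0.10 without replicate 1 and 0.18 without the filter. The SD of single Rab genes moved more: with normexp it was over 1.5 times higher for 14 and lower by that factor for 11 of 39, and without replicate 1 it was lower by that factor for 12, among them Rab7a (0.11), Rab11a (0.053) and Rab40b (0.098). The number detected on all arrays was 41 (75.9%) with the positive and significant mark and 37 (68.5%) when every probe had to be detected. The shares of named genes in these settings were 56.5% and 43.1%. With 1 array left out the number was 38 to 39, beside 48.0% to 49.0% of named genes. Median deviations by array changed sign with scaling. A percentile over detected probes shifted levels by -3.52, one over all spots by -2.36 and normexp by -0.41 log2 units in the median of all tested genes. Over all genes the count past the variance test changed from 69 to 0 with the percentile over detected probes or a prior without trend, 1 with the percentile over spots or quantile normalization, 237 with normexp, 356 without the filter, and it lay between 27 and 162 with 1 array left out. A robust prior called 0 when each gene kept its own prior degrees of freedom, as it was first run. After that result was seen it was rerun with the degrees of freedom of the bulk of genes, which called 207. Of Rab genes, 0 were called either way. The cause of the other changes was not tested. No paired analysis was possible because the arrays came from 1 group.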
